A study of Mus musculus with 12 samples.

Results

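The major urinary protein (Mup) genes were examined for acetylation of lysine 9 on histone H3 (H3K9ac), which in mouse liver chromatin sits on promoters and enhancers in use. The set held 9 genes chosen by name, Mup1, Mup2, Mup3, Mup4, Mup5, Mup6, Mup7, Mup20 and Mup21, out of 21911 protein-coding gene symbols in the annotation (GENCODE M21, mm10). For each gene a window was taken that joined the gene body with 5 kb either side of the gene start, and the peaks inside it were read from the list of each library. Chromatin immunoprecipitation and sequencing (ChIP-seq) had been done on livers of adult mice of 4 groups. These were the inbred strain C57BL/6J (B6, 2 mice), the inbred strain MSM/Ms derived from Japanese wild mice (MSM, 2 mice), and the reciprocal hybrids F1 BM (B6 mother and MSM father, 1 mouse) and F1 MB (MSM mother and B6 father, 1 mouse). No mouse carried a transgene or received a treatment according to the labels, which do not give the sex of the mice.

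Mup proteins are small secreted lipocalins that hold volatile pheromones in a barrel-shaped pocket. The liver makes most of them, and they pass through the blood and the kidney into urine, where they serve in scent marking and recognition. Transcription of the liver Mup genes is driven by growth hormone through the factor STAT5 and is known to be higher in males than in females. The genes lie side by side on chromosome 4 together with many pseudogenes, and the copies in the middle of the cluster are nearly identical to each other. Mup20 encodes darcin, the pheromone that makes male scent attractive to females. Mup4 and Mup5 are known mainly from glands of the head, Mup4 from lacrimal and nasal tissue and Mup5 from salivary glands.

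The 6 lists differed in length, which may bear on the values below. They held 22968 and 11619 peaks in B6, 17310 and 17584 in MSM, 20173 for F1 BM and 13235 for F1 MB, and they covered between 6.28 and 16.02 Mb. The files hold no read counts. The paper gives sequencing depth as a range of read pairs over the ChIP samples and cites a supplementary table, but depth was not used here. A gene without a peak may have had acetylation too weak for its library. All 8 hepatocyte markers had a peak within 1 kb of the start in each of the 6 libraries, as the tissue label gives. Markers of other cells had fewer peaks within 1 kb of the start. These were 0 of 5 for Kupffer cells in every library, between 0 and 4 of 5 for endothelial cells, and at most 1 gene for stellate cells, cholangiocytes and lymphocytes. Xist, which is transcribed from the inactive X chromosome, had a peak at its start in all 6 libraries, whereas the Y-linked genes Ddx3y, Kdm5d, Eif2s3y and Uty had none in any. Peaks anywhere on chromosome Y numbered 0 in both B6 libraries, 8 and 4 in MSM, 9 for F1 BM and 1 for F1 MB. The part of sex, cell composition and list length in the values below was not tested, except where an equal-sized list is given. A smaller acetylated fraction of cells and weaker acetylation in each cell cannot be told apart in whole liver.

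The sequences that the results turn on are shown first, on the gene strand, because the genes are close relatives of each other. RefSeq promoters of GRCm38.p6, 250 bases before to 50 bases after the RefSeq start, were held for 6 of the 9 genes (Mup2, Mup3, Mup4, Mup6, Mup7 and Mup21). Capitals mark TATATAA and TATAAA, forms of the TATA box. Mup3 (chr4:62087268-62087567, minus strand) is the gene with the highest peaks, Mup2 (chr4:60139807-60140106, minus strand) and Mup7 (chr4:60070426-60070725, minus strand) are copies from the middle of the cluster, and Mup4 (chr4:59960618-59960917, minus strand) had no peak.
Mup3: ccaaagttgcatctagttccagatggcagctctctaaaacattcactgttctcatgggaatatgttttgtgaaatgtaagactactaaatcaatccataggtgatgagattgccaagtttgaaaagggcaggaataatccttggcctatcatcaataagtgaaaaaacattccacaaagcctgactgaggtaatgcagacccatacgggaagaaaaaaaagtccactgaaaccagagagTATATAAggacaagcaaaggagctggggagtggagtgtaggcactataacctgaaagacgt
Mup2: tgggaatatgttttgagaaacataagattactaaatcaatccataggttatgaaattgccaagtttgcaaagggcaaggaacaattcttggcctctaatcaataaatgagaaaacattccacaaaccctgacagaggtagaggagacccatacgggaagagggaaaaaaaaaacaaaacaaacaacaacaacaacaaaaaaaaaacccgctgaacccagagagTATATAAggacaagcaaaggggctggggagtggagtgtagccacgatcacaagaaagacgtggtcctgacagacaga
Mup7: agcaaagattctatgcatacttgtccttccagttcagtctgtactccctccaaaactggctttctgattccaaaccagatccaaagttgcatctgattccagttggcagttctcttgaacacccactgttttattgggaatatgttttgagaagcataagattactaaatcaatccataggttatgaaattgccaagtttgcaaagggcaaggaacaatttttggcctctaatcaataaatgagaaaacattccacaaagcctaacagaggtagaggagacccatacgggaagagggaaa
Mup4: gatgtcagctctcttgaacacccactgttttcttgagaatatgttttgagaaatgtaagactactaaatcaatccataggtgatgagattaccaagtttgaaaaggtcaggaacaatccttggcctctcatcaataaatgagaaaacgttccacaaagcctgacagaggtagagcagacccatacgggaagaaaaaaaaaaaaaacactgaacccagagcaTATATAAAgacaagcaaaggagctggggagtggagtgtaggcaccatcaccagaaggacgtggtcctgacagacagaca

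TATATAA was found in 5 of the 6 promoters, all but Mup7, against 3.24% of 32851 mouse promoters of the same length. The Mup7 window reaches less far downstream than that of Mup2, and the pair share 166 aligned columns, so Mup7 is not shown to lack these letters. This spelling was chosen after the sequences were seen, and the planned spelling TATAAA, which overlaps it, was found in Mup4 and Mup6 and in 13.6% of all promoters. Matches were counted on both strands. TTCNNNGAA (a STAT site), TTGCNNAA (a C/EBP site) and GTTAAT (part of an HNF1 site) were in none of the 6 and in 8.30%, 10.8% and 7.10% of all promoters, which says only that these letters are not in this window. Aligned pair by pair, the 6 promoters were between 73.4% (Mup2 and Mup21) and 97.6% (Mup2 and Mup7, over their 166 shared columns) identical, with a median of 84.6% over 15 pairs. The promoter of Mup4, which had no peak, was 88.3% identical to that of Mup3.

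Mup3 had the highest fold enrichment of the 9 genes in all 6 libraries, and at least 3550 bp of its window was acetylated in each of them. Its window held 4243 and 3743 bp under peaks in B6, 4155 and 3550 bp in MSM, 5263 bp in F1 BM and 3927 bp in F1 MB. These lengths overlapped between the strains, at a mean of 3993 bp (SD 354, n = 2) for B6 and 3852.5 bp (SD 428, n = 2) for MSM, and the exact permutation test over the 4 parental mice gave p = 0.667. With 2 mice against 2 this two-sided test allows no p below 0.333, so no single gene could pass 0.05. Among genes with a peak, the length at Mup3 lay between the 94.7th and the 97.9th percentile of each library.

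**Figure D1:**
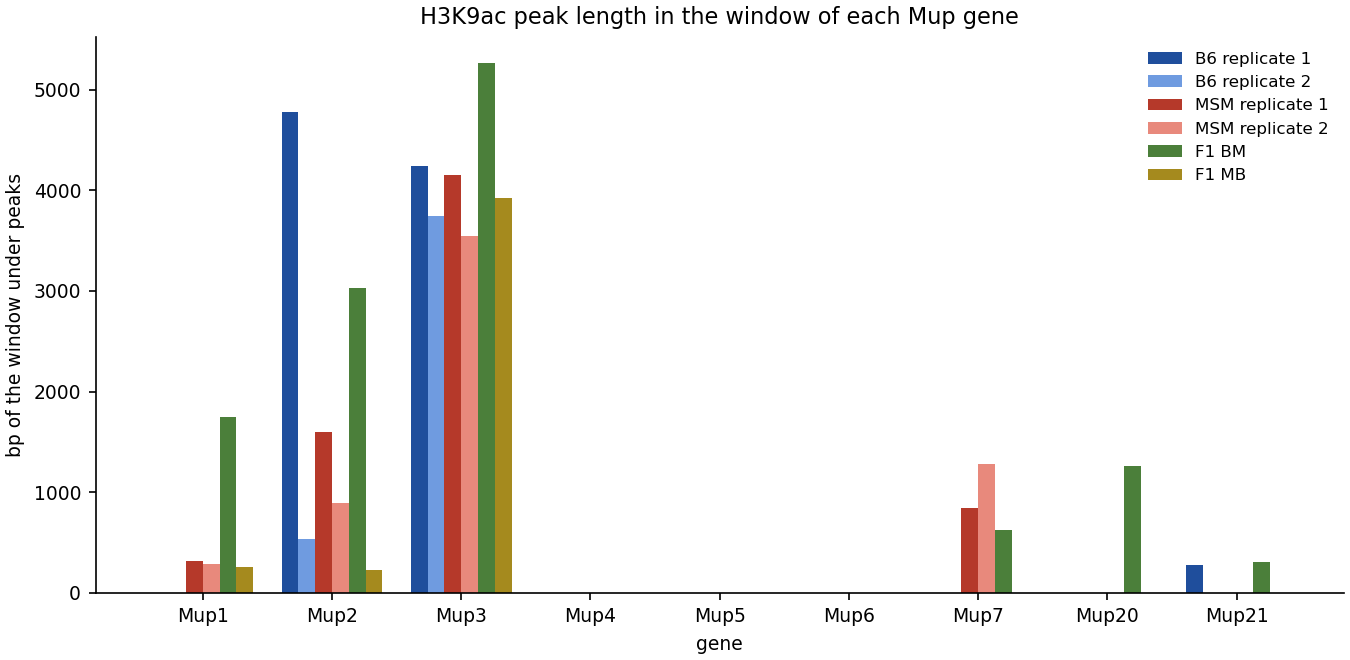
Base pairs of each gene's window that lie under H3K9ac peaks (vertical axis, bp) for the 9 Mup genes (horizontal axis), with 1 bar per library and no error bars because each bar is a single mouse. Mup3 has bars of 3550 to 5263 bp in all 6 libraries, Mup2 varies from 222 to 4777 bp, and Mup4, Mup5 and Mup6 have none.

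The main peak of Mup3 did not lie over its start but upstream of it. Its highest point was in an intron of the annotated gene Gm12909 in every library, so this peak cannot be ascribed to Mup3 alone. Over the 6 libraries together it reached from -3204 to -867 bp of the Mup3 start (chr4:62088209-62090546). The fold enrichment of this peak, a linear ratio of signal over background as the authors' peak caller gave it, was 13.9 and 8.87 in B6, 10.1 and 14.1 in MSM, 9.57 for F1 BM and 10.6 for F1 MB. The fold was at or above the 94.9th percentile of all peaks in each list, and the B6 and MSM values overlapped. Its width hardly moved between libraries whose lists differed in length. The mean width was 2322 bp (SD 18.4, n = 2) for B6 and 2289 bp (SD 22.6, n = 2) for MSM, so MSM minus B6 was -33 bp against a pooled SD of 20.6 bp. The highest point of the peak was at -1190 and -1191 bp in B6, -1752 and -1264 bp in MSM, -1244 bp in F1 BM and -1224 bp in F1 MB. The 300 bases around the median of these points (chr4:62088426-62088725, minus strand, GRCm38.p6) are shown because every library had its acetylation there. Capitals mark the stretch whose relatives in the other genes are given further on.
Mup3 upstream peak: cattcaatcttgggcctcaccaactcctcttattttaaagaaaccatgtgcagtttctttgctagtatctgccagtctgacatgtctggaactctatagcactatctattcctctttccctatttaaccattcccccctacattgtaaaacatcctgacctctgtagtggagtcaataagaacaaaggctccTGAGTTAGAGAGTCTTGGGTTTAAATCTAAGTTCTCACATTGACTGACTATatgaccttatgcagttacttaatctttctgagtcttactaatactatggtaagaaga

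A second stretch of acetylation at Mup3 lay over the start itself, from -720 to 1223 bp, in all 6 libraries. It covered 1908 and 1434 bp in B6 but 825 and 235 bp in MSM, with 1769 bp in F1 BM and 1647 bp in F1 MB. Both B6 mice and both hybrids were thus above both MSM mice, and the lower MSM mouse had only 1 peak there, just inside the gene. Another stretch, at the 3' end of the gene from 3004 to 4192 bp, had a peak in both MSM mice and in F1 BM and none in B6 or F1 MB. The fold of these 3' peaks was 4.89 and 5.82 in MSM and 3.36 in F1 BM, beside median folds of 4.93, 4.996 and 3.38 in those lists. When each list was trimmed to an equal covered length, the Mup3 window held 2335 and 3743 bp in B6 and 4155 and 3315 bp in MSM, which turned the direction of the mean difference from -140.5 to 696 bp.

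Within 1 kb of the outermost start, where the edge of the upstream Mup3 peak is counted too, Mup2 and Mup3 were at least 200 bp longer in both B6 mice than in both MSM mice. Of the 9 genes, 4 had a parental peak there and could be called, and the call held for 4.38% of 9941 coding genes with such a peak. Mup3 had 1855 and 1542 bp there in B6 and 932 and 304 bp in MSM. Mup2 had 733 and 295 bp in B6 and 0 bp in both MSM mice, so it was also called by presence, as 1.86% of those coding genes were. Both calls depended on list length and the Mup2 call on the start chosen. With an equal number of peaks Mup2 had 0 and 295 bp in B6 and was no longer called, while Mup3 was as before. With an equal covered length Mup3 had 134 and 1542 bp in B6 and 932 and 69 bp in MSM, so neither gene was called. Within 1 kb of the coding start of Mup2 there were 72 and 0 bp in B6 and 227 and 0 bp in MSM, with no call.

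**Figure D2:**
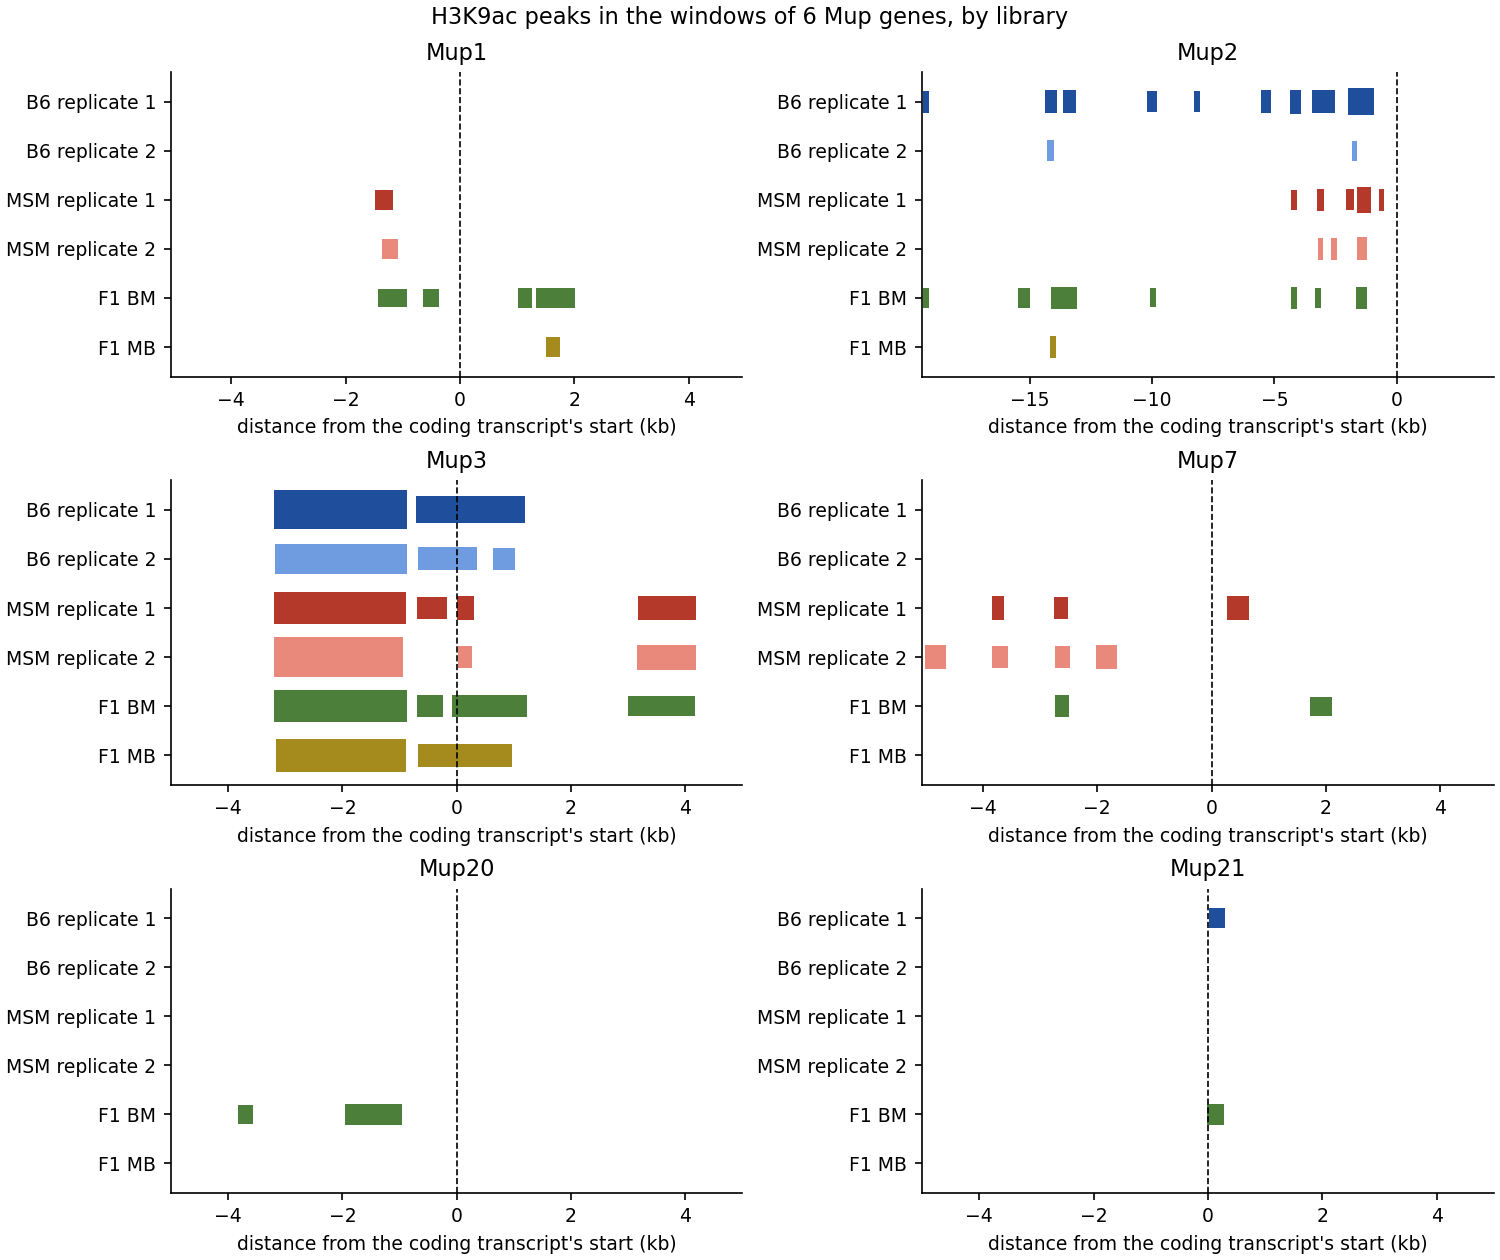
H3K9ac peaks of each library (rows) drawn to scale along the windows of the 6 Mup genes that had any, with the distance from the coding transcript's start in kb on the horizontal axis, upstream to the left, and bar height growing with the fold enrichment. The wide upstream peak of Mup3 appears in all 6 rows, and the peaks of Mup20 appear in the F1 BM row alone.

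Mup2 was the other gene with a peak in its window in every library, and it was the most variable one. Its window held 4777 and 532 bp in B6, 1600 and 888 bp in MSM, 3030 bp in F1 BM and 222 bp in F1 MB. The F1 MB peak lay at the outermost start, and with a window set by the coding transcript F1 MB had 0 bp. The 2 B6 mice lay on either side of both MSM mice, and the means of 2654.5 bp (SD 3002, n = 2) for B6 and 1244 bp (SD 503, n = 2) for MSM did not separate (exact permutation p = 1). The number of peaks was 9 and 2 in B6, 5 and 3 in MSM, 7 for F1 BM and 1 for F1 MB. Their highest fold was 7.34 and 3.64 in B6, 6.29 and 4.65 in MSM, 4.59 for F1 BM and 3.87 for F1 MB.

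The annotation of Mup2 matters for where these peaks are said to lie. The gene's outermost start (60154289) belongs to a non-coding transcript, and the protein-coding transcript starts 14392 bp further downstream, at 60139897. One group of peaks lay upstream of the coding start. The highest of them had its summit at -1469 and -1765 bp from that start in B6, at -1428 and -1427 bp in MSM and at -1475 bp in F1 BM. The region holding it (chr4:60140826-60141959) had a peak in all 4 parental mice and in F1 BM, but not in F1 MB. The other group lay at the outermost start (chr4:60152944-60154267) and had a peak in both B6 mice and both hybrids and in neither MSM mouse. This second region is also in the window of the pseudogene Mup-ps2, whose annotated start is at 60155274 on the opposite strand, so it cannot be ascribed to Mup2 alone.

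Mup7 had peaks in both MSM mice and neither B6 mouse. Its window held 0 and 0 bp in B6, 842 and 1276 bp in MSM, 624 bp in F1 BM and 0 bp in F1 MB. The groups did not overlap, with 1059 ± 307 bp in MSM (SD, n = 2) against 0 bp in both B6 mice, and the exact permutation p was 0.333, the smallest the design allows. Most of these peaks were upstream of the start. A region from -2690 to -2416 bp was shared by both MSM mice and F1 BM, and one from -3784 to -3503 bp by both MSM mice. The highest fold was 5.60 and 5.74 in MSM and 3.93 in F1 BM, above the median of each of those lists.

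Mup1 also had peaks in both MSM mice and neither B6 mouse, but short and weak ones. Its window held 0 and 0 bp in B6, 315 and 286 bp in MSM, 1744 bp in F1 BM and 255 bp in F1 MB. MSM had 300.5 ± 20.5 bp (SD, n = 2), above both B6 mice (exact permutation p = 0.333). The MSM peaks had a fold of 2.66 and 3.32, at the 1.50th and 8.71st percentile of their lists, so they were among the weakest peaks called. They lay at the same place, within -1427 to -874 bp of the start in an intron of Gm13773, and F1 BM had a peak there too. In F1 MB the single peak was inside the gene, in a region from 1380 to 2073 bp that F1 BM shared and no parental mouse had.

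Mup1 and Mup7 were the 2 of the 9 genes called for MSM, both by presence (a peak in both mice of one strain and in neither of the other) and by length (both mice at least 200 bp above both of the other). For B6, 0 of the 9 were called by either rule, but with a window of 5 kb either side of the outermost start alone Mup2 was called by both (1669 and 295 bp in B6, 0 bp in both MSM mice). Over the 11446 coding genes with a parental peak, the shares were 0.874% for presence in MSM, 1.74% for presence in B6, 2.44% for length in MSM and 5.5% for length in B6. Of the 9 genes, 5 had a parental peak and so could be called. When each list was trimmed to an equal number of peaks, Mup1 lost its MSM peaks and Mup7 kept 623 and 625 bp in MSM against 0 bp in B6. When each list was trimmed to an equal covered length, both had 0 bp in all 6 libraries.

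Mup20 and Mup21 had peaks in few libraries. Mup20, the darcin gene, had 1265 bp in F1 BM and 0 bp in the other 5 libraries, with a fold of 3.31 and the summit of the higher peak at -1047 bp. Mup21 had 278 bp in B6 replicate 1, 308 bp in F1 BM and 0 bp in the other 4 libraries. The peak lay just downstream of the start in B6 replicate 1 (22 to 299 bp) and across it in F1 BM (-21 to 286 bp). The fold at Mup21 was 2.72 in B6 replicate 1 and 3.68 in F1 BM. These are the libraries with the most peaks, 22968 and 20173.

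Mup4, Mup5 and Mup6 had 0 bp under peaks in all 6 libraries. The window of Mup6 was the longest of the 9, 47981 bp, because its gene model starts 39144 bp upstream of the coding transcript, and it held no peak over any of that length. These 3 genes therefore give no strain comparison.

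**Figure D3:**
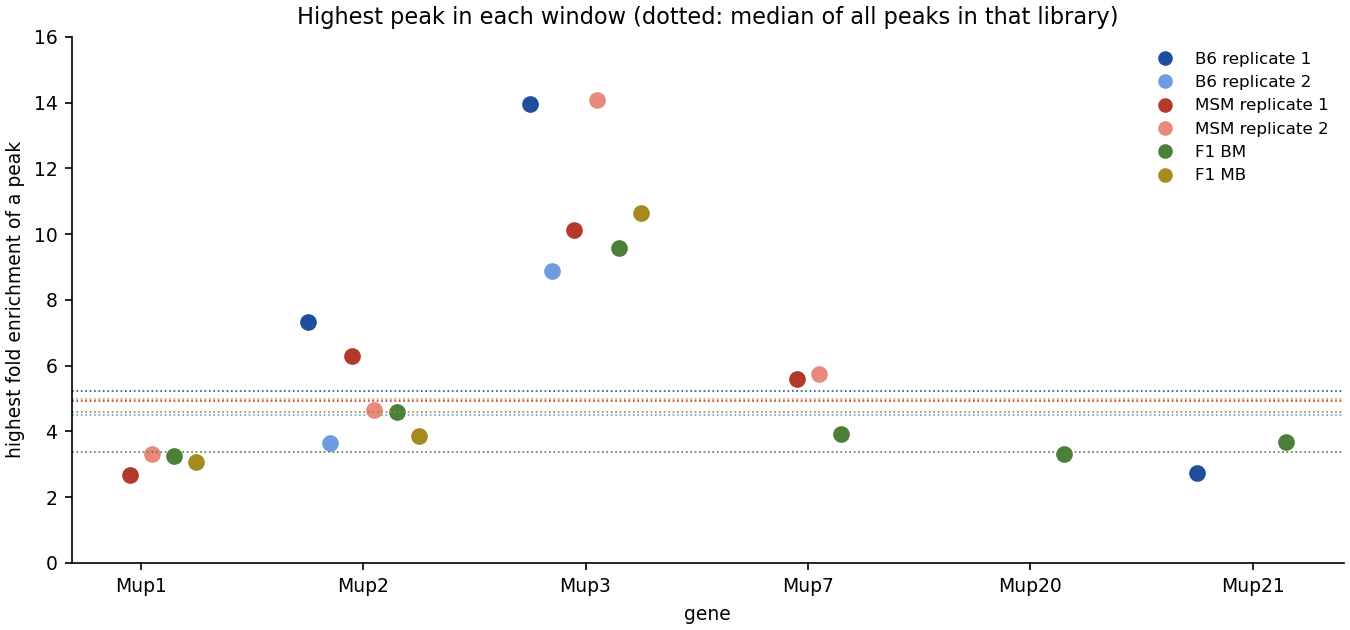
Highest fold enrichment of any peak in the window (vertical axis, linear ratio over background) for the 6 Mup genes with a peak, with 1 point per library and the median fold of all peaks in that library as a dotted line of the same colour. The points of Mup3, from 8.87 to 14.1, stand above those of the other genes, and each point of Mup1 lies below the median of its library.

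Over the 9 windows together, the strains did not separate in total length. The sum was 9298 and 4275 bp in B6, 6912 and 6000 bp in MSM, 12234 bp in F1 BM and 4404 bp in F1 MB. B6 averaged 6786.5 bp (SD 3552, n = 2) and MSM averaged 6456 bp (SD 645, n = 2), so the difference of -330.5 bp for MSM was far inside the pooled SD of 2553 bp. Mup3 alone made up 45.6% and 87.6% of the sum in B6, 60.1% and 59.2% in MSM, 43.0% for F1 BM and 89.2% for F1 MB. The sums moved in part with list length, since the shortest lists, B6 replicate 2 and F1 MB, had the smallest sums, whereas F1 BM, with 12.3 Mb under peaks, exceeded B6 replicate 1, with 16.02 Mb. Within 1 kb of the start the strains did separate, with sums of 2866 and 1837 bp in B6 against 1312 and 304 bp in MSM. Most of this was Mup2 and Mup3, whose lengths there overlapped between the strains at equal covered length, as given above. Per Mb under peaks in the whole list the sum over the full windows was 580 and 681 bp in B6, 715 and 619 bp in MSM, 998 bp in F1 BM and 591 bp in F1 MB, which narrowed the spread between the B6 mice. Over all 21911 coding genes, 50.8% and 33.3% had a peak in B6, 41.8% and 42.5% in MSM, 42.2% in F1 BM and 37.1% in F1 MB. Of the 9 Mup genes, 3 and 2 had a peak in B6 and 4 in each MSM mouse, a difference of 1.5 genes against a pooled SD of 0.5. That difference was 0 in lists of equal covered length and in gene bodies, and within 1 kb of the start it was -1, the opposite direction.

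The hybrids differed widely in how many peaks they had, but with 1 mouse per cross this has no replicate check. F1 BM had 20 peaks over 6 of the 9 genes and F1 MB had 4 peaks over 3 genes. When overlapping peaks of the 6 full lists, of unequal length, were joined, the windows held 26 regions. Of the 4 regions found in both MSM mice and neither B6 mouse, at Mup1, Mup3 and Mup7, F1 BM had a peak in 3 and F1 MB in 0. The 1 region found in both B6 mice and neither MSM mouse, at the outermost start of Mup2, had a peak in both hybrids. A further 7 regions, at Mup1, Mup2, Mup7 and Mup20, were found in hybrids only, and 2 regions, both at Mup3, were found in all 6 libraries. No share over all joined regions of the genome is given beside these counts, so whether they differ from those of other regions was not tested.

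How far reads can be placed in these windows was measured from the genome sequence. Sequenced reads were 50 bases long, so each window was cut into all its 50-base stretches, and the share of stretches that occur once in chromosomes 1 to 19, X and Y, on either strand, was counted. The share was 92.4% at Mup5, 86.9% at Mup4, 77.3% at Mup3, 74.3% at Mup21, 59.6% at Mup6 and 46.5% at Mup20. It was 20.5% at Mup7, 10.8% at Mup2 and 6.31% at Mup1. Of the 3 genes without a peak, Mup5 and Mup4 had the highest shares of the 9 and Mup6 had the median share. For 60 other genes of the liver, lipocalin and hormone lists the median share was 96.1%. Exact matching leaves out paired reads and mismatches, both of which the mapping program uses.

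Of the 50-base stretches under any peak, 93.4% occurred once at Mup3, 98.0% at Mup20 and 100% at Mup21, against 27.1% at Mup7, 10.9% at Mup2 and 1.63% at Mup1. Under the MSM peaks of Mup1, 0% of stretches occurred once, and a typical stretch had 6 copies. At Mup2 the share was also 0% under every peak of the region upstream of the coding start, where a typical stretch had 4 to 8 copies. Under the Mup7 peaks shared by both MSM mice the share was between 24.7% and 49.8%. The part of misplaced reads, and of sequence that differs between MSM and the B6 reference used for mapping, in the Mup1, Mup2 and Mup7 values was not tested.

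The 50 bases in the middle of the stretch shared by both MSM peaks of Mup1 are an example of such repeated sequence. They occur 6 times in the genome, letter for letter, each time in the window of a different Mup gene: Mup1, Mup7, Mup12, Mup14, Mup18 and Mup22. The distance of the 6 copies from the start of their gene was between -1227 and -1094 bp. The 50 bases around the median summit of the Mup3 upstream peak, by contrast, occur once.

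The best alignment of this Mup1 stretch in the window of each gene lay about the same distance upstream of the coding start in 8 of the 9 genes, all but Mup21. Measured from the coding transcript, the distance was between -1266 bp at Mup1 and -1014 bp at Mup2. The aligned stretch shared 49 of 50 columns with Mup1 at Mup2, 50 of 50 at Mup7, 44 of 51 at Mup3, 43 of 51 at Mup5, Mup6 and Mup20, and 41 of 51 at Mup4. The stretches are shown on the gene strand, with capitals at the bases that differ from Mup1 or are added to it.
Mup1 (chr4:60503144-60503193): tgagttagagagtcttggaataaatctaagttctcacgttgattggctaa
Mup7 (chr4:60071544-60071593): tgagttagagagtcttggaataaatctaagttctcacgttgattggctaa
Mup2 (chr4:60140886-60140935): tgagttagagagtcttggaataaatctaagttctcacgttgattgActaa
Mup3 (chr4:62088483-62088533): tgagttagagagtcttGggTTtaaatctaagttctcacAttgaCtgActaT
Mup20 (chr4:62055327-62055377): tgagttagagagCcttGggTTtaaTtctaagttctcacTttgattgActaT
Mup5 (chr4:61836401-61836451): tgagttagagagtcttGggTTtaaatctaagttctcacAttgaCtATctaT
Mup6 (chr4:60002257-60002307): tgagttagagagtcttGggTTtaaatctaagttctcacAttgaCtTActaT
Mup4 (chr4:59961818-59961868): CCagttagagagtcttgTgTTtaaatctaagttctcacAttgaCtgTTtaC

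Peaks over this position were called at some genes and not at others. At Mup3 it was wholly under a peak in all 6 libraries. At Mup1 this was so in both MSM mice and F1 BM, at Mup2 in B6 replicate 1, and at Mup20 in F1 BM. At Mup4, Mup5, Mup6 and Mup7 no base of it was under a peak in any library. Because the copy at Mup7 is identical to that at Mup1, reads from the one cannot be told from reads of the other by this stretch alone.

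**Figure D4:**
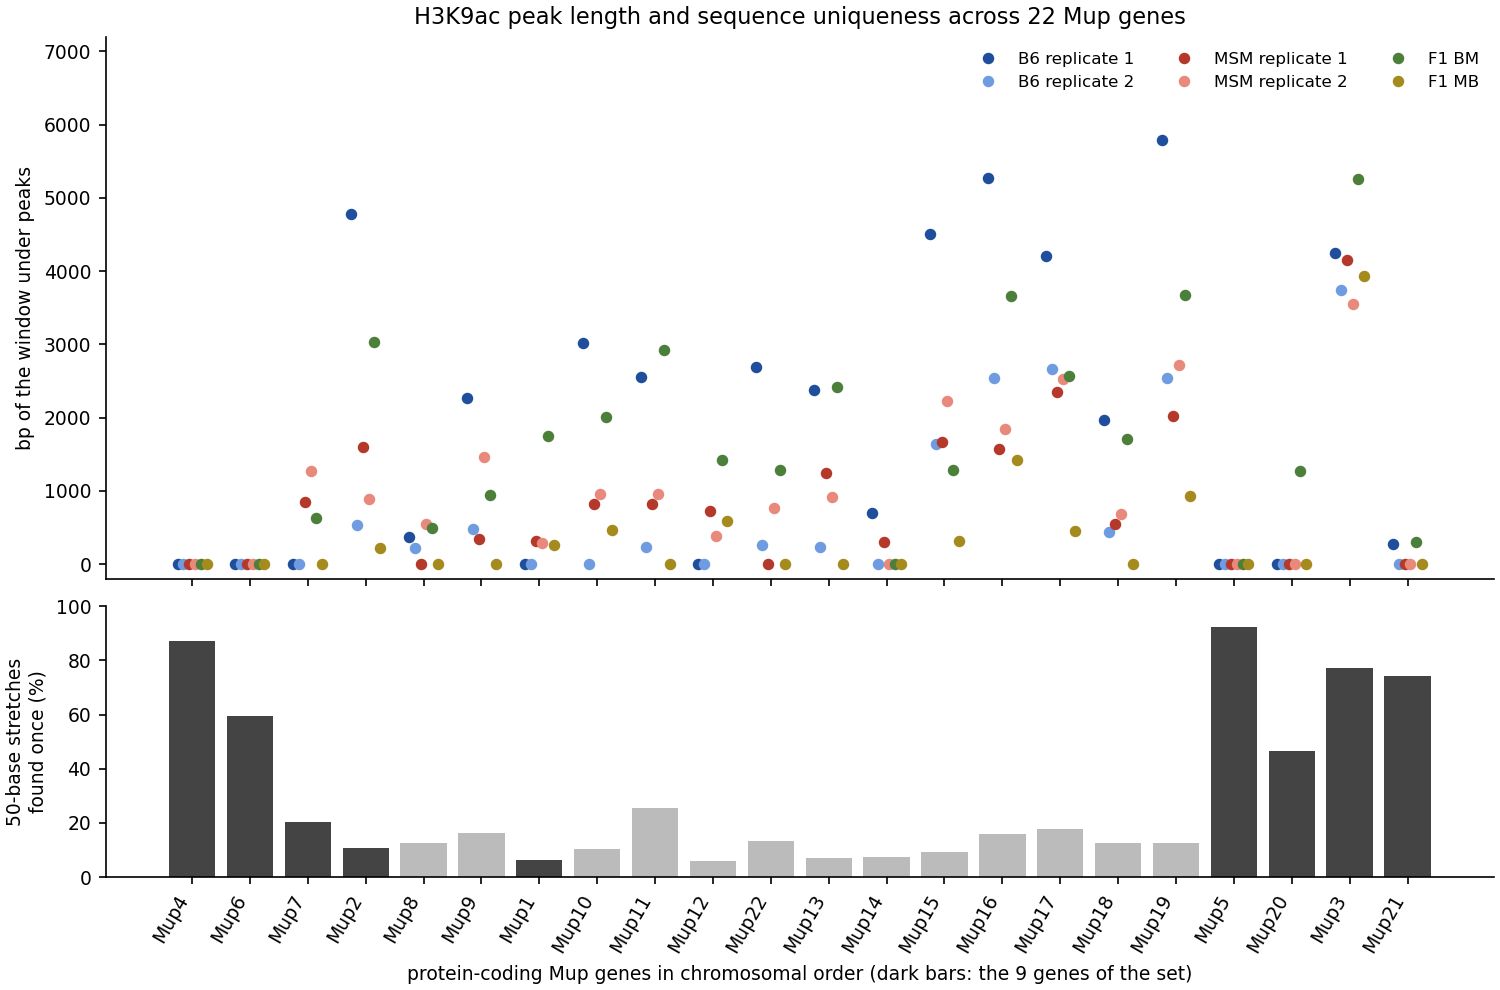
Upper panel, base pairs under H3K9ac peaks in the window (vertical axis, bp) of 22 protein-coding Mup genes in chromosomal order, with 1 point per library. Lower panel, share of 50-base stretches of the window that occur once in the genome (vertical axis, %), with dark bars for the 9 genes of the set, where the genes of the middle of the cluster, from Mup7 to Mup19, have shares of 5.94% to 25.7% and Mup3, at the right, has 77.3%.

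The other 13 protein-coding Mup genes, all from the middle of the cluster, each had a peak in at least 1 library, compared with 6 of the 9 genes described here. They were Mup8 to Mup19 and Mup22, and their share of 50-base stretches found once was between 5.94% and 25.7%. The number of them with a peak was 12 and 10 in B6, 11 and 12 in MSM, 12 for F1 BM and 6 for F1 MB. Their median length was 2559 and 259 bp in B6, 815 and 958 bp in MSM, 1703 bp in F1 BM and 0 bp in F1 MB. By the length rule Mup16 was called for B6 and Mup12 for MSM, 1 of 13 each, against 5.5% and 2.44% of all coding genes with a parental peak. Mup16 had a fold of 12.1 and 9.02 in B6 and 6.34 and 13.0 in MSM, in part above the fold at Mup3 in the same library (8.87 in B6 replicate 2). Values of neighbouring genes are not independent, since the windows can share peaks and reads.

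Among 19 genes of the growth hormone pathway and of liver factors that act on Mup genes, all 19 had a peak in every library. By length 1 was called for B6 and 2 for MSM. Ghr, the growth hormone receptor, had 5320 and 2979 bp in B6 and 2465 and 2187 bp in MSM. Igf1, a growth hormone target, had 8094 and 4939 bp in B6 and 8682 and 10444 bp in MSM, and Foxa1, a liver transcription factor, had 4533 and 1617 bp in B6 and 4939 and 5428 bp in MSM. Stat5b, which carries the growth hormone signal to the genes, had 7284 and 3213 bp in B6 and 5598 and 6928 bp in MSM, with the strains overlapping. It was chosen after its values were seen. These counts, and those of the lists that follow, stand beside 5.5% called for B6 and 2.44% for MSM over all coding genes with a parental peak.

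Other lipocalin genes were acetylated in part. Of 14 genes, 7 had a parental peak, and Obp1a, Obp1b, Lcn2, Lcn3, Lcn4, Lcn11 and Apod had none in any library. By length Orm1 and Ambp were called for B6 and Orm3 for MSM. Orm1, an acute phase protein gene, had 2673 and 1292 bp in B6 and 976 and 0 bp in MSM. Ambp had 1580 and 1168 bp in B6 and 520 and 756 bp in MSM, and Orm3 had 463 and 448 bp in B6 and 929 and 902 bp in MSM.

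Of 10 liver genes known, like the Mup genes, to be higher in males, 6 had a parental peak. By the length rule 4 of them were called for MSM, against 2.44% of all genes, and 0 for B6, against 5.5%. Susd4 had 0 bp in both B6 mice and 2723 and 2865 bp in MSM. Cyp7b1, a hydroxylase of oxysterols and steroids, had 1345 and 735 bp in B6 and 2582 and 3919 bp in MSM. Cyp2d9, a steroid hydroxylase, had 247 and 0 bp in B6 and 1740 and 1187 bp in MSM, and Selenbp2 had 367 and 0 bp in B6 and 735 and 733 bp in MSM. Of 10 genes known to be higher in females, 9 had a parental peak, and 3 were called for B6 (Cyp2b9, Cyp2b13 and Sult2a1) and 4 in MSM, among them Cyp2a4, Cyp3a44 and Sult3a1. Cyp2b9 had 4891 and 2816 bp in B6 and 0 bp in both MSM mice. Sult2a1, Cyp3a44 and Sult3a1 were named after their values were seen. These lists, too, hold gene families with similar copies.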

How the data were processed

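H3K9ac ChIP-seq had been done on 6 adult mouse livers, and the 6 input samples were left out. Sample titles gave the groups and replicate numbers. Per the study's methods, the authors trimmed reads with Trim Galore and mapped 50-base pairs to mm10 with Bowtie 2, while the submitters' processing notes list Trim Galore, HISAT2, SAMtools and MACS2. How reads with several matches were treated, and whether the input served as control, is not given in the sources used here. The deposited files were 1 peak list per library, so replicates were not pooled. For each peak the authors deposited a linear ratio (the fold enrichment) and the −log10 of a p-value and of a q-value. A score column the authors deposited was not used. The lowest −log10 q was between 1.30 and 1.35 in the 6 lists, which is a q of about 0.05.

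Windows (gene body joined with 5 kb either side of the gene start, GENCODE M21) were intersected with merged peaks, and bp under peaks and peak presence (at least 1 bp) were taken per library in numpy 2.4.6 (Python 3.11.15), with tests from scipy 1.17.1 and plots from matplotlib 3.10.9. Strains were compared by two-sided exact permutation tests and by the calls defined in the text, computed over all coding genes. The interval and call functions and the search for 50-base stretches were tested on simulated data. The genes, lists and tests were chosen with earlier results of these data known. All 9 genes were named with their values. Other Mup genes were named where a library had a peak, and of each list up to 4 genes that were called, largest difference first. A called gene of these lists is not reported here. Alternatives were equal list lengths, a −log10 q of at least 5, narrower windows, an overlap of 200 bp, each parental mouse left out, and pairing by replicate number. Added after seeing the data were the coding transcript's start, length per covered Mb, leaving out Mup2, and 1 kb either side of the start in equal lists or at the coding start.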

Additional observations from a re-analysis of the deposited data

How the results depend on the processing

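The sign of the strain difference in summed length was not fixed. MSM minus B6 was -330.5 bp as reported, 433 bp with the same number of peaks, 722.5 bp with the same covered length, -195 bp with a −log10 q of at least 5, -1218.5 bp in gene bodies, -1543.5 bp within 1 kb of the start (pooled SD 720 bp), 98 bp within 5 kb of the start, 968 bp from the coding transcript and 1080 bp without Mup2 (pooled SD 402 bp), so the settings with a difference above their own pooled SD went in opposite directions. Leaving out 1 mouse at a time moved it from -2842 bp, when B6 replicate 2 was left out, to 2181 bp, when B6 replicate 1 was. The number of genes with a peak was 1.5 higher in MSM as reported. It was -1 within 1 kb of the start, which turned the direction, 0 in gene bodies, 0 with the same covered length and 0.5 within 5 kb of the start, and the cause was not tested. Leaving out 1 mouse gave 1 to 2. With the replicate block, which pairs mice by replicate number, the differences were -330.5 bp and 1.5 genes as before, and the exact sign-flip test of 2 pairs gave p = 0.5 for Mup1 and Mup7 (toward MSM) and for Mup3 (toward B6), the smallest it can give. The numbers mark no shared animal, so they pair nothing by design. The MSM peaks of Mup1 were lost in both equal-list settings, in gene bodies and within 1 kb of the start (0 bp), and stayed in 1 MSM mouse at a −log10 q of at least 5 (mean difference 143 bp). The Mup7 difference was 1059 bp as reported, 624 bp with the same number of peaks, 0 bp with the same covered length and 190 bp in gene bodies. Depth was not in the files, so a missing peak may be one below the limit of its library.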

Other observations

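The pseudogenes of the cluster also carried peaks. Of 27 annotated Mup pseudogenes, 20 had bp under a peak in the window of at least 1 library. The number with a peak was 13 and 6 in B6, 5 and 4 in MSM, 18 for F1 BM and 3 for F1 MB. The 20 were Mup-ps1 to Mup-ps17, Mup-ps20, Mup-ps21 and Mup-ps23. Of the 14 with a parental peak, Mup-ps2, Mup-ps7 and Mup-ps14 were at least 200 bp longer in both B6 mice than in both MSM mice and 0 were in the other direction, against 5.5% and 2.44% of coding genes. Some of these windows overlap those of coding genes and share their peaks. The share called among other pseudogenes, and the share of 50-base stretches found once in the pseudogene windows, were not computed.

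Across the whole stretch from the first to the last of the 9 windows (chr4:59955710-62155863, 2.20 Mb) there were 101 and 32 peaks in B6, 66 and 65 in MSM, 108 for F1 BM and 17 for F1 MB. They covered 3.03% and 0.882% of the stretch in B6, 1.32% and 1.296% in MSM, 2.48% for F1 BM and 0.460% for F1 MB. The order of F1 BM and F1 MB in these full lists was the same as in the 9 genes.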
